A study of Homo sapiens with 40 samples.

Results

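The comparison described here set spheroids of Kyse30 cells treated with epidermal growth factor (EGF) and a MEK inhibitor against Kyse30 spheroids treated with EGF and cetuximab. Its members were the 8 libraries whose column names carry the line and either inhibitor, 4 per group, of 40 libraries in the series. Kyse30 is an established line from an oesophageal squamous cell carcinoma, here carrying Dendra2, a fluorescent protein. Both groups received 9 nM EGF for 72 h in type I collagen, with 10 µg/mL cetuximab, an antibody that binds the EGF receptor, or 100 nM AZD6244, an inhibitor of the kinases MEK1/2. Both were sorted without selection for invasive cells, from about 40 spheroids and more than 1000 cells per group. Kyse30 spheroids kept in serum-free medium with neither EGF nor inhibitor (4 libraries) and the same inhibitor pair in FaDu, a hypopharyngeal squamous carcinoma line (8 libraries), served as references. The series addresses EGF receptor-driven local invasion and its inhibition, and this contrast asks how blocking the receptor differs from blocking one kinase pathway below it. Each line was used as 1 engineered cell population. The labels do not tell whether the 4 replicates were grown separately, and the p-values therefore reflect sample-to-sample spread that may be technical.

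The EGF receptor signals through RAS, RAF, MEK and ERK to the nucleus, and also through PI3K, STAT and other routes. ERK activity switches on its own brakes, among them the phosphatase DUSP6 and the Sprouty proteins, and the PEA3 family of ETS transcription factors (ETV1, ETV4 and ETV5), so the RNA of these genes is widely used as a readout of ERK output. Cetuximab acts at the receptor outside the cell, whereas a MEK inhibitor acts inside it on 1 branch, whichever receptor feeds that branch. In squamous carcinoma cells the pathway is known for driving proliferation and motility, and interferon signalling for driving the display of peptides on MHC class I.

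The 8 libraries held 3339892 to 4295621 counts each, and 12284 to 12404 of 12655 listed genes had a count. Mitochondrial transcripts took 8.55 to 16.5% of counts with cetuximab and 9.39 to 13.4% with the MEK inhibitor, ranges that overlap, against 19.7 to 23.8% in serum-free libraries. Replicate 1 of the cetuximab group stood apart, with a median correlation with its group of 0.930 against 0.960 to 0.970 for the others of that group. Of 13 squamous epithelial markers, 12 were in the deposited table and 8 exceeded 10 CPM (the count scaled to a common normalised library size). KRT19 stood at 2629 CPM under cetuximab and 2797 CPM under the MEK inhibitor, SOX2 at 149 and 135 CPM and TP63 at 13.3 and 10.9 CPM. The keratins KRT5, KRT14 and KRT17 were below 1 CPM in both groups (0.122, 0.0676 and 0.604 CPM with cetuximab). KRT15, a basal keratin on the same list, stood at 274.5 CPM under cetuximab and 94.2 CPM under the MEK inhibitor. Of 10 fibroblast, 11 leukocyte and 7 endothelial markers, only COL1A1 (5.02 and 8.70 CPM), CD68 (3.53 and 2.24 CPM) and CDH5 (25.3 and 11.2 CPM) had values here. CDH5, an endothelial cadherin, was called lower in the test described next (-1.18 ± 0.31, adjusted p = 0.029, edgeR), but not without cetuximab replicate 2, 3 or 4 or MEK inhibitor replicate 1, 2 or 4 (up to 0.090), and not by limma-voom (0.056).

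Genes lower with the MEK inhibitor than with cetuximab included the ERK feedback genes DUSP6 and SPRY4 and the ERK-induced PEA3 factors. Lower too were 7 of 17 integrin and hemidesmosome genes and the actin bundler FSCN1. Genes higher included 14 of 15 MHC class I genes, 20 of 27 interferon response genes and ID1 to ID4. By edgeR's quasi-likelihood F test with Benjamini-Hochberg adjustment, 599 of 11726 genes tested had an adjusted p under 0.05 and are described as called (5.11%). Of these, 296 were higher with the MEK inhibitor (2.52%) and 303 lower (2.58%), and the median log2 fold change over all genes tested was -0.0074. Fold changes below are log2 values, MEK inhibitor minus cetuximab, with their standard error (SE). All 4 MEK inhibitor libraries lay above all 4 cetuximab libraries in 799 genes (6.81%), and the reverse held in 837 genes (7.14%). The count of called genes rested on the libraries used: it was 354 without MEK inhibitor replicate 3, 396 without replicate 1 of that group, and 141 when all 8 sorted invasive and non-invasive libraries shared the fit, of which 136 were among the 599. Without 1 shallow invasive library, replicate 1, that last fit called 563 genes, 498 of them among the 599. Where a call is given below as lost with all 20 libraries, the adjusted p without this library follows it.

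**Figure D1:**
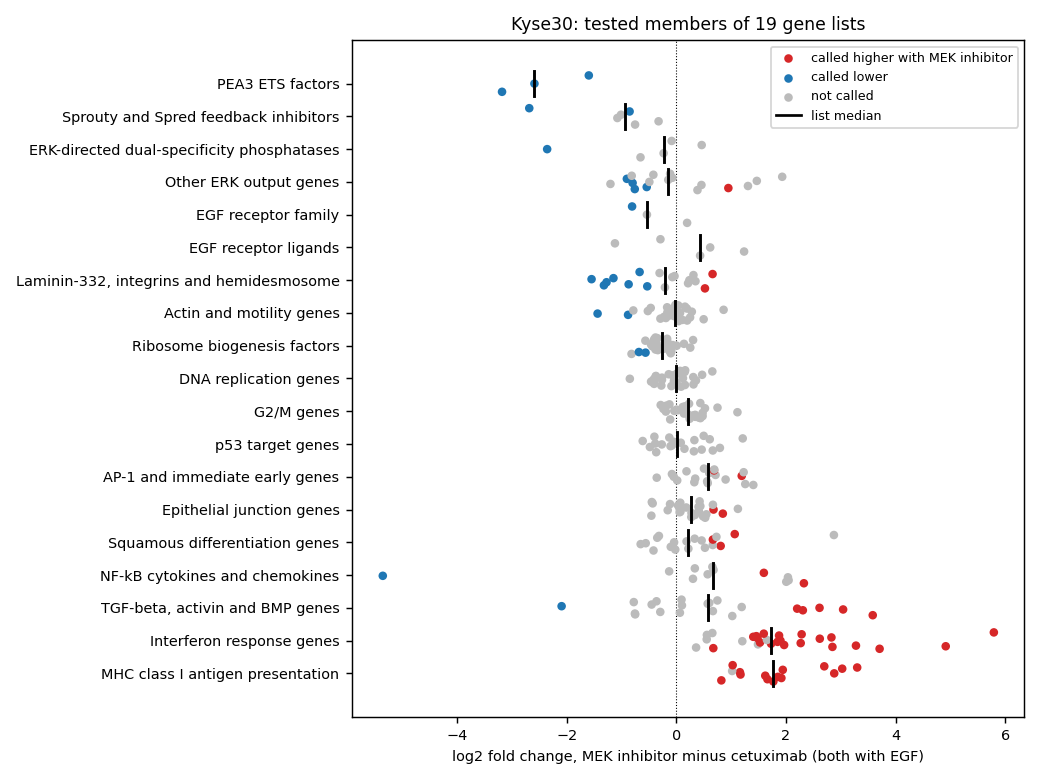
Log2 fold change (x axis, MEK inhibitor minus cetuximab, both with EGF) of each tested member of 19 gene lists in Kyse30, with 1 point per gene and a black bar at the list median. Points of the PEA3 factors lie left of 0 and those of the MHC class I and interferon lists lie right of 0, while the DNA replication and G2/M lists straddle 0 with no called member.

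The PEA3 factors and some of the ERK feedback genes were lower with the MEK inhibitor than with cetuximab. All 3 PEA3 factors, 2 of 6 tested Sprouty and Spred genes and 1 of 5 ERK-directed phosphatases were called, all lower, with list medians of -2.59, -0.93 and -0.23. DUSP6, the cytoplasmic phosphatase that inactivates ERK, read 49.8, 101, 118 and 231 CPM in the 4 cetuximab libraries and 26.3, 25.2, 13.2 and 32.5 CPM in the 4 MEK inhibitor libraries, against 46.7, 51.3, 39.7 and 63.6 CPM in serum-free spheroids. The groups did not overlap, cetuximab replicate 4 was the highest library, and the serum-free libraries lay above every MEK inhibitor library. The difference in DUSP6 was -2.36 ± 0.39, a 5.13-fold lower level (adjusted p = 0.0029, edgeR).

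The 250 bases before the DUSP6 and SPRY4 starts, on the minus strands of chr12:89352502-89352751 and chr5:142324248-142324497, are shown because these 2 genes head the feedback lists (RefSeq, GRCh38.p14, 5′ to 3′). Capitals would mark an extended ETS motif (searched as GGAAGT), an AP-1 site (TGANTCA) or a CRE (TGACGT) on either strand. Neither window held one of these exact strings, whereas 19.5%, 6.57% and 7.10% of 35116 windows of that length did. The shorter ETS core GGAA, which occurs in both windows, was not searched.
DUSP6: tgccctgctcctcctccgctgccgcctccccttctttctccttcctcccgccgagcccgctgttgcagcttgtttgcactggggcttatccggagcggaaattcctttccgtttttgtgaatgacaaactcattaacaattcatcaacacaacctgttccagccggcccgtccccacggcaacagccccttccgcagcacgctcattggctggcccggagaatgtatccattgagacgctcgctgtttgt
SPRY4: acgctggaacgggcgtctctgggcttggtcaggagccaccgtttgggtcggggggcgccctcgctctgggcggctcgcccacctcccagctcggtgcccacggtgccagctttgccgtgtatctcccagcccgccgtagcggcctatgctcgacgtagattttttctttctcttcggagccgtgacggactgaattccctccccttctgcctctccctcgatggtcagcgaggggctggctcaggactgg

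SPRY4, a Sprouty protein that restrains signalling from receptors to RAS, stood at 9.47, 7.47, 8.97 and 6.72 CPM under cetuximab and 1.86, 1.42, 1.103 and 0.533 CPM under the MEK inhibitor (-2.68 ± 0.56, adjusted p = 0.0053, edgeR). Its groups lay far apart relative to their own spread, although the counts behind it were few. SPRY2 read 42.5, 64.1, 68.1 and 95.1 CPM under cetuximab and 35.4, 37.7, 34.5 and 41.6 CPM under the MEK inhibitor (-0.85 ± 0.21, adjusted p = 0.02, edgeR). Its call was lost without cetuximab replicate 4 (adjusted p = 0.12) and without MEK inhibitor replicate 1, 2 or 3 (0.062, 0.052 and 0.070), and with all 20 libraries in the fit (0.34), but not without the shallow one (0.036). SPRY1 (-1.01 ± 0.31), SPRED1 (-0.75 ± 0.34), SPRED2 (-0.33 ± 0.43) and SPRED3 (-1.08 ± 0.53) were not called by edgeR, while DESeq2 and limma-voom called SPRY1 lower (adjusted p = 0.020 and 0.038). In the 3 windows of SPRY2 the string GGAAGT occurred in 1, and the 6 windows of ETV1 held none of the 3 strings searched.

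ETV4, which drives motility programmes downstream of ERK, read 149, 78.4, 90.2 and 90.8 CPM under cetuximab and 18.2, 22.7, 10.8 and 15.99 CPM under the MEK inhibitor, against 60.4, 64.8, 57.1 and 60.5 CPM without serum. All MEK inhibitor libraries lay below all serum-free libraries, which in turn lay below all cetuximab libraries; the serum-free levels were not tested. The difference was -2.59 ± 0.23, or 6.02-fold lower (adjusted p = 7.05e-07, edgeR). ETV5 read 27.9, 43.9, 47.3 and 37.9 CPM under cetuximab and 14.5, 18.4, 6.62 and 12.3 CPM under the MEK inhibitor (-1.598 ± 0.33, adjusted p = 0.0055, edgeR). Unlike ETV4, its serum-free level of 10.5 ± 4.51 CPM (SD, n = 4) was close to that with the MEK inhibitor, 12.9 ± 4.93 CPM. ETV1 was scarce, at 2.98, 7.23, 8.098 and 6.45 CPM under cetuximab and 0.932, 0.567, 0.276 and 0.7996 CPM under the MEK inhibitor (-3.18 ± 0.79, adjusted p = 0.018, edgeR). The ETV1 call was lost without cetuximab replicate 3 (0.058), MEK inhibitor replicate 2 (0.061) or replicate 3 (0.076), with limma-voom (0.060) and with all 20 libraries in the fit (0.10), but not without the shallow one (0.033).

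The other ERK-directed phosphatases were not called by edgeR in the main fit. DUSP4, which acts in the nucleus, read 316, 386, 322 and 290.0 CPM under cetuximab and 268, 279, 141 and 147 CPM under the MEK inhibitor (-0.66 ± 0.19, adjusted p = 0.053, edgeR). Its groups did not overlap, MEK inhibitor replicates 3 and 4 were the lowest libraries, and DESeq2 and limma-voom called it lower (adjusted p = 0.033 and 0.028). With the replicate number as a block, edgeR called DUSP4 as well (adjusted p = 0.014). DUSP5 (-0.23 ± 0.32), DUSP7 (0.46 ± 0.48) and DUSP9 (-0.09 ± 0.49) had overlapping groups. For DUSP5 the MEK inhibitor libraries spread from 29.1 to 112 CPM, on both sides of the cetuximab range of 72.5 to 103 CPM.

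**Figure D2:**
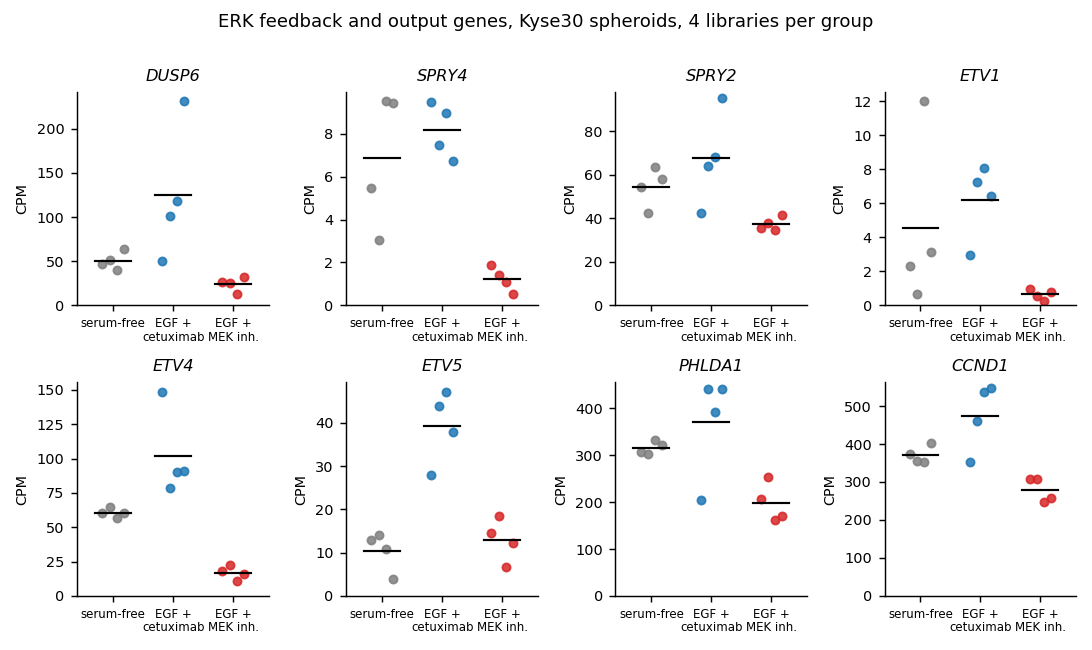
CPM (y axis, linear from 0) of 8 ERK feedback and output genes in each Kyse30 library by group (x axis), with 1 point per library and a bar at the mean of 4. The MEK inhibitor libraries lie below every cetuximab library for each gene except PHLDA1, where cetuximab replicate 1 falls within their range.

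Of 17 other ERK output genes tested, 4 were called lower and 1 higher, with a list median of -0.15. CCND1, the D-type cyclin that carries mitogenic signals to the cell cycle, read 351, 461, 536 and 548 CPM under cetuximab and 308, 308, 246 and 257 CPM under the MEK inhibitor (-0.76 ± 0.14, adjusted p = 0.0027, edgeR). No library of the groups overlapped, and the serum-free libraries (353 to 402 CPM) sat between the MEK inhibitor group and most cetuximab libraries. HMGA1, an architectural chromatin protein, differed by -0.799 ± 0.13 (adjusted p = 8.82e-04, edgeR) and PHLDA1, a pleckstrin-homology protein induced by ERK, by -0.904 ± 0.196 (adjusted p = 0.0084, edgeR). Both calls were lost with all 20 libraries in the fit (0.062 and 0.088) and kept without the shallow one (0.0023 and 0.017). The member called higher was CDC42EP3, a binding partner of the GTPase CDC42, at 105 ± 9.57 CPM under cetuximab and 202 ± 22.3 CPM under the MEK inhibitor (SD, n = 4; 0.95 ± 0.15, adjusted p = 4.90e-04, edgeR). Of 19 immediate early genes tested, JUN and MCL1 were called higher and none lower, and 16 had a value above 0 (median 0.57). JUN, a subunit of AP-1, read 203, 152, 85.1 and 175 CPM under cetuximab and 507, 319.7, 261 and 317 CPM under the MEK inhibitor (1.19 ± 0.22, adjusted p = 0.0036, edgeR), and its serum-free libraries read 315, 343, 329 and 314 CPM. FOS (0.33 ± 0.26), EGR1 (0.57 ± 0.32) and MYC (0.69 ± 0.41) were not called. JUN belongs also to the 12 genes of the tissue dissociation response, whose summed level was 1897 to 2609 CPM with cetuximab, 2067 to 3323 CPM with the MEK inhibitor and 3453 to 3700 CPM without serum, and their part in the JUN result was not tested. The call of MCL1, which protects cells from apoptosis, was lost without cetuximab replicate 3 or 4 (0.067 and 0.084) or MEK inhibitor replicate 1 or 2 (0.12 and 0.11), and with all 20 libraries (0.15), but not without the shallow one (0.027).

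Among the receptors themselves, EGFR, the target of cetuximab, showed no called difference. It read 1979, 2095, 2809 and 1878 CPM under cetuximab and 2332, 2461, 3273 and 1962 CPM under the MEK inhibitor (0.19 ± 0.15, adjusted p = 0.58, edgeR). The groups overlapped, EGFR was not called with the replicate number as a block either (adjusted p = 0.47, edgeR), and the serum-free libraries were higher than all 8, at 3581, 3766, 3778 and 3669 CPM. ERBB3, a kinase-impaired partner receptor that recruits PI3K, read 175, 130.2, 192 and 179.8 CPM under cetuximab and 113, 82.8, 96.5 and 93.5 CPM under the MEK inhibitor, and differed by -0.81 ± 0.15 (adjusted p = 0.0018, edgeR). The 2 groups did not overlap, and the serum-free libraries lay above both, at 263 ± 14.2 CPM (SD, n = 4), but the call was lost with all 20 libraries in the fit (0.59), though not without the shallow one (0.0030). ERBB2 was not called (-0.54 ± 0.19). None of the 5 ligand genes tested was called by edgeR, although 2 had an unadjusted p under 0.05, and DESeq2 and limma-voom each called HBEGF lower (adjusted p = 0.042 and 0.036). The edgeR values were as follows: TGFA (-0.29 ± 0.23), AREG (0.43 ± 0.41), EREG (0.62 ± 0.52), BTC (1.23 ± 0.42) and HBEGF (-1.12 ± 0.37). AREG showed how wide the ligands spread, with 347, 825, 274 and 344 CPM in the cetuximab libraries and 708, 1002, 329 and 377 CPM in the MEK inhibitor libraries, where replicate 2 was the highest of each group. ERBB4, EGF, EPGN and SPRY3 were also listed and were not analysed here. AXL, a receptor tyrosine kinase outside the EGF receptor family, was lower with the MEK inhibitor (31.3 ± 4.24 against 9.47 ± 2.396 CPM, SD, n = 4; -1.72 ± 0.304, adjusted p = 0.0014, edgeR), a call lost with all 20 libraries in the fit (0.19) and kept without the shallow one (0.0028).

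Several integrin and hemidesmosome genes were lower with the MEK inhibitor. Of 17 genes of laminin-332, integrins and the hemidesmosome, 7 were called lower and 2 higher (list median -0.21). ITGB4, the hemidesmosomal integrin chain that binds laminin-332, read 829, 793, 686 and 1052 CPM under cetuximab and 281, 333, 252 and 282 CPM under the MEK inhibitor. Every cetuximab library was at least 2-fold above every MEK inhibitor library, and the serum-free libraries, at 469, 509.7, 441 and 524 CPM, lay between the groups. Its difference was -1.55 ± 0.14 (adjusted p = 8.01e-07, edgeR). The partner chain ITGA6 differed by -1.28 ± 0.17, from 546 ± 91.8 to 226 ± 56.96 CPM (SD, n = 4; adjusted p = 7.01e-05, edgeR). ITGA2, which with ITGB1 forms a receptor for the type I collagen around these spheroids, read 249, 343, 492 and 438 CPM under cetuximab and 171, 176, 139.8 and 122 CPM under the MEK inhibitor (-1.32 ± 0.18, adjusted p = 7.57e-05, edgeR). The other genes called lower were ITGB5 (-1.15), ITGA3 (-0.87), PLEC (-0.67) and DST (-0.53). ITGB1 itself (0.24 ± 0.17) and the laminin-332 chain LAMA3 (0.31 ± 0.26) were not called, and the called rise of another chain, LAMB3 (0.66 ± 0.18, adjusted p = 0.036, edgeR), missed the threshold with the replicate number as a block (0.055) and without any 1 of 5 libraries (cetuximab replicates 1 and 3, MEK inhibitor replicates 1, 2 and 3; up to 0.17), and with the sorted libraries in the fit, whether all 8 (0.29) or without the shallow one (0.082). With all 20 libraries in the fit 3 members were called lower, 6 without the shallow one, and 6 without cetuximab replicate 1.

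Motility and matrix genes added a few large differences in lists with few called members. FSCN1, which bundles actin in filopodia and invadopodia, read 139.6, 226, 162 and 207 CPM under cetuximab and 70.9, 82.3, 57.3 and 60.8 CPM under the MEK inhibitor (-1.44 ± 0.17, adjusted p = 1.48e-05, edgeR). The 2 groups did not overlap, and the serum-free libraries, at 57.2, 51.98, 54.6 and 58.3 CPM, resembled the MEK inhibitor group. FLNA, an actin crosslinker, was the other gene called among 27 motility genes (-0.88 ± 0.19, adjusted p = 0.0081, edgeR), and lost its call with all 20 libraries in the fit (0.090) but not without the shallow one (0.0082). Of 13 proteases and inhibitors tested, 3 were called, all lower. SERPINE2, an inhibitor of thrombin and urokinase, read 139, 155, 165 and 80.9 CPM under cetuximab and 36.1, 20.7, 29.8 and 11.7 CPM under the MEK inhibitor (-2.45 ± 0.296, adjusted p = 5.33e-05, edgeR). TIMP3, a matrix-bound inhibitor of metalloproteinases, read 90.1, 100.3, 150.4 and 115 CPM under cetuximab and 24.9, 33.8, 23.4 and 15.99 CPM under the MEK inhibitor (-2.22 ± 0.21, adjusted p = 1.52e-06, edgeR). In both genes the highest MEK inhibitor library was below the lowest cetuximab library, and for TIMP3 the serum-free libraries (97.4, 129, 111 and 132 CPM) lay within the cetuximab range. MMP14, a membrane metalloproteinase, was called lower (-0.91 ± 0.25, adjusted p = 0.035, edgeR), but not with all 20 libraries (0.51; 0.042 without the shallow one) nor without cetuximab replicate 1 or any 1 MEK inhibitor library (up to 0.17).

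**Figure D3:**
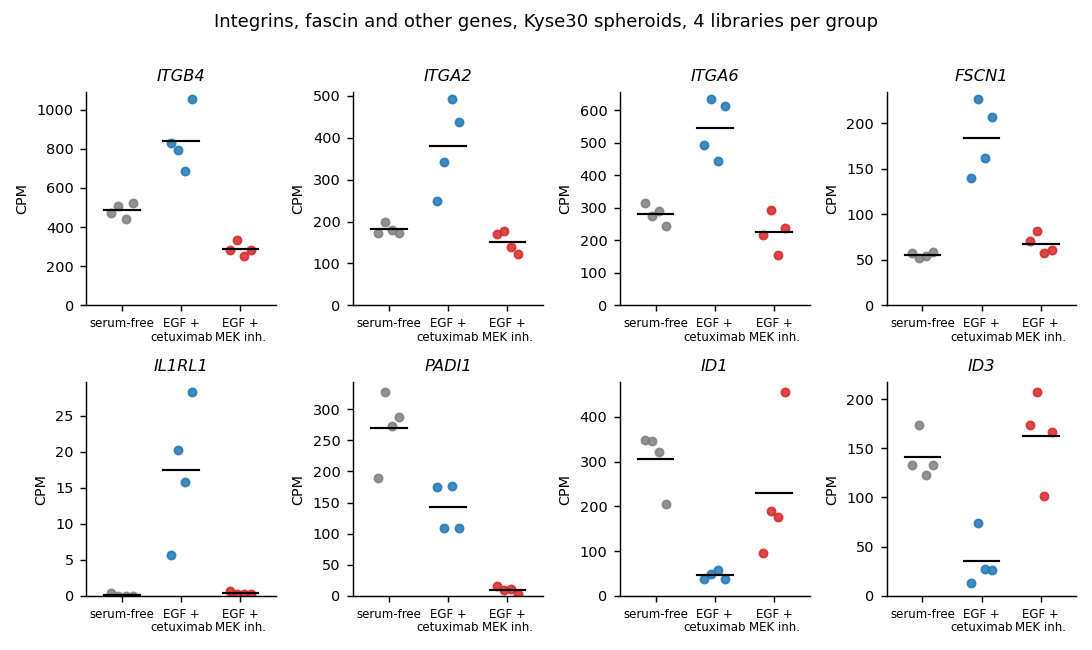
CPM (y axis, linear from 0) of 8 genes in each Kyse30 library by group (x axis), with 1 point per library and a bar at the mean of 4. ITGB4, ITGA2, ITGA6, FSCN1, IL1RL1 and PADI1 are higher in every cetuximab library than in any MEK inhibitor library, and ID1 and ID3 show the reverse. IL1RL1 and PADI1 met a naming rule that required such separation, and ID3 was chosen after its values were seen.

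Genes of MHC class I antigen presentation were higher with the MEK inhibitor. Of 15 tested, 14 were called higher and none lower, and in all 15 the MEK inhibitor libraries lay above every cetuximab library (list median 1.77). B2M, the invariant light chain of MHC class I, read 883, 815, 1028 and 639.6 CPM under cetuximab and 2850.1, 2389, 3895 and 2328 CPM under the MEK inhibitor, against 1392, 1151, 1255 and 1021 CPM without serum. The serum-free libraries lay below every MEK inhibitor library and above every cetuximab library but replicate 3. The difference was 1.77 ± 0.17, or 3.41-fold (adjusted p = 1.63e-06, edgeR). The heavy chains HLA-B (1.85 ± 0.19), HLA-C (1.62 ± 0.34), HLA-E (1.17 ± 0.17) and HLA-F (2.88 ± 0.31) were each called, although reads of these near-identical genes can be split between them by the counting. TAP1, a subunit of the pump that moves peptides into the endoplasmic reticulum, read 13.3, 16.6, 11.6 and 9.67 CPM under cetuximab and 83.7, 66.1, 221 and 134 CPM under the MEK inhibitor (9.83-fold, 3.297 ± 0.32, adjusted p = 4.15e-06, edgeR). PSMB9, a proteolytic subunit of the immunoproteasome, read 19.5, 11.1, 13.1 and 10.2 CPM under cetuximab and 73.7, 63.5, 209 and 92.2 CPM under the MEK inhibitor (8.13-fold, 3.02 ± 0.34, adjusted p = 2.17e-05, edgeR). In both genes MEK inhibitor replicate 3 was the highest library, and the serum-free libraries (17.3 ± 2.94 and 19.4 ± 3.56 CPM, SD, n = 4) were close to the cetuximab group.

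TAP1 and PSMB9 lie head to head on chromosome 6, and their promoters are shown because both genes rose together. The TAP1 window spans chr6:32853705-32853954 on the minus strand and the PSMB9 window chr6:32853942-32854191 on the plus strand, so the windows meet at their upstream ends (250 bases before each start, RefSeq, GRCh38.p14, 5′ to 3′). Capitals mark letters of an interferon-stimulated response element (ISRE, searched as GAAA, any 2 bases, GAAA) or a STAT site (GAS, searched as TTCNNNGAA) on either strand, motifs chosen after the values were seen. The TAP1 window shown held 2 overlapping ISRE matches and no GAS match, a second TAP1 window (not printed) held 1 GAS match, and the PSMB9 window held neither. Of 35116 windows, 3.02% held an ISRE match and 6.57% a GAS match.
TAP1: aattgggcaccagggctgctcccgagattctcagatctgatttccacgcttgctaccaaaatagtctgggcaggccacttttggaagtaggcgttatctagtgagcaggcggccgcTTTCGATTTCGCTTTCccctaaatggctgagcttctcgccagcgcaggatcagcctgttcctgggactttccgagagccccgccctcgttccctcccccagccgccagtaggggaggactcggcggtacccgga
PSMB9: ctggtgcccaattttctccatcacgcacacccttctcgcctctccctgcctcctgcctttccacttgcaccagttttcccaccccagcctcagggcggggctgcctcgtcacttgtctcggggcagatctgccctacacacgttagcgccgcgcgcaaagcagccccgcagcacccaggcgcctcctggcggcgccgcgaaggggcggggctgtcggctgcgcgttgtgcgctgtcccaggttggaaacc

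TAP2, the second chain of the pump, differed by 2.697 ± 0.29, PSMB8, another immunoproteasome subunit, by 1.94 ± 0.35, and TAPBP, which loads peptide onto MHC class I, by 1.03 ± 0.18. The trimming peptidases ERAP1 (0.82 ± 0.22) and ERAP2 (1.66 ± 0.197) and the class I transactivator NLRC5 (1.16 ± 0.33) were called as well, and PSMB10 was not (1.02 ± 0.34, adjusted p = 0.094, edgeR). CD74, the invariant chain of MHC class II, had 0 counts in every cetuximab library and 14.2, 8.79, 34.7 and 19.2 CPM in the MEK inhibitor libraries. Its level was at least 103-fold higher with the MEK inhibitor, counted against a floor of 3 counts over the cetuximab group (adjusted p = 9.14e-06, edgeR). The count of class I genes called higher was 13 without cetuximab replicate 1, 13 with the replicate block and 12 with the sorted libraries in the fit, with or without the shallow one.

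Interferon response genes were also higher with the MEK inhibitor. Of 27 tested, 20 were called higher and none lower, all 27 had a value above 0, and the list median was 1.73. IRF1, an interferon-induced transcription factor, read 252, 149, 124 and 95.1 CPM under cetuximab and 575, 533, 735 and 384 CPM under the MEK inhibitor (1.84 ± 0.25, adjusted p = 3.64e-04, edgeR). The cetuximab and MEK inhibitor groups did not overlap, the serum-free libraries read 201 to 264 CPM, and MEK inhibitor replicate 3 was the highest library. IFI6, an interferon-induced membrane protein, read 26.8, 16.9, 7.66 and 15.05 CPM under cetuximab and 110.0, 80.3, 282 and 167 CPM under the MEK inhibitor (3.27 ± 0.42, adjusted p = 4.26e-04, edgeR). SAMD9L (2.28 ± 0.31), IFI44 (2.85 ± 0.49), IFIT3 (2.27 ± 0.42), the RNA sensor IFIH1 (1.96 ± 0.41) and OAS2 (2.62 ± 0.59) were among the others called. The size varied between MEK inhibitor libraries: IFI44L read 4.66, 4.26, 47.7 and 29.9 CPM and XAF1, a pro-apoptotic interferon target, 12.6, 6.24, 121 and 72.2 CPM, with replicates 3 and 4 several times above 1 and 2. ISG15 was called by a narrow margin (1.898 ± 0.49, adjusted p = 0.0497, edgeR), and STAT2 (0.66 ± 0.24), MX1 (1.65 ± 0.85), OAS1 (0.55 ± 0.27) and IRF9 (1.202 ± 0.83) were not called. The number called fell to 4 of these genes with all 20 libraries in the fit and to 7 without the shallow one, and was 18 without cetuximab replicate 1 and 18 with the replicate block. XAF1 lost its call without cetuximab replicate 1, 2, 3 or 4 (0.12, 0.090, 0.099 and 0.12), with limma-voom (0.38) and with all 20 libraries (0.054; 0.080 without the shallow one). IFI44L lost its call with limma-voom (0.21) and with all 20 libraries (0.15; 0.20 without the shallow one).

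**Figure D4:**
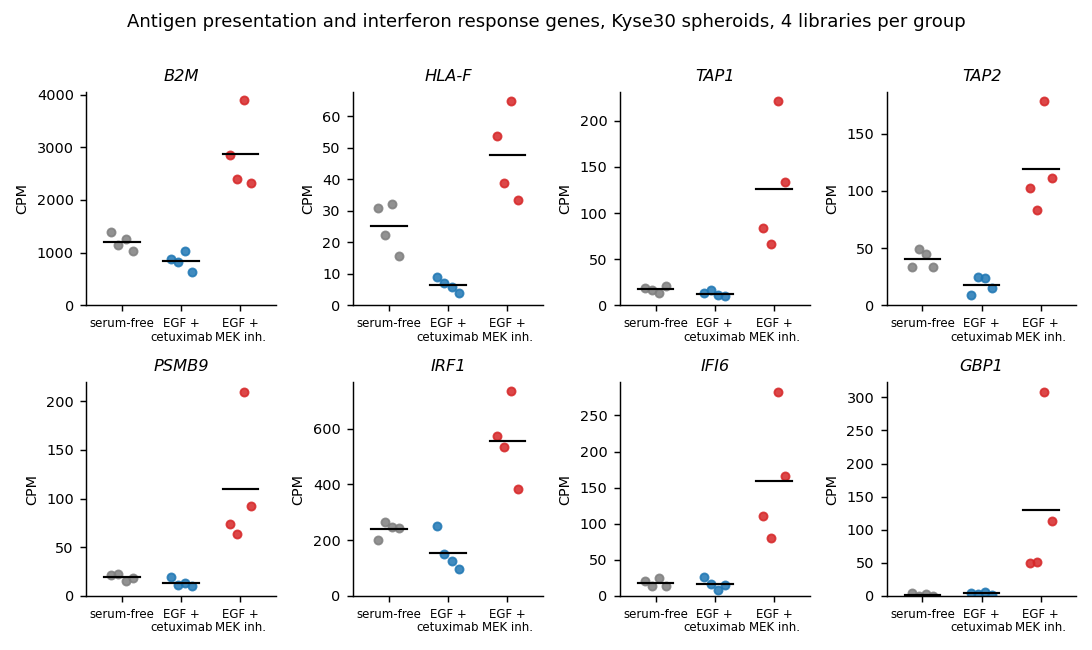
CPM (y axis, linear from 0) of 8 antigen presentation and interferon response genes in each Kyse30 library by group (x axis), with 1 point per library and a bar at the mean of 4. Every MEK inhibitor library lies above every cetuximab library for each gene, and the MEK inhibitor points are the most spread, most of all for GBP1. GBP1, TAP1 and IFI6 met a naming rule that required such separation, and B2M and IRF1 were chosen after their values were seen.

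The largest rises, named by a rule that admitted only genes whose groups did not overlap, included several interferon-induced genes. GBP1, a guanylate-binding protein active against intracellular pathogens, read 4.33, 3.13, 6.57 and 1.07 CPM under cetuximab and 49.2, 50.8, 308 and 114 CPM under the MEK inhibitor (5.07 ± 0.85, adjusted p = 0.0072, edgeR). GBP4 differed by 4.52 ± 0.77 and UBD, a ubiquitin-like modifier induced by interferon, by 4.98 ± 0.64. IDO1, which degrades tryptophan, read 0.541, 0, 0.219 and 0 CPM under cetuximab and 3.03, 5.96, 51.5 and 21.1 CPM under the MEK inhibitor (adjusted p = 0.0031, edgeR), and TRIM22 0, 0.482, 0 and 0 CPM and 6.53, 5.11, 16.8 and 15.2 CPM (adjusted p = 0.0011, edgeR). MEK inhibitor replicate 3 was the highest library for all 5 of these genes, and GBP1, GBP4 and IDO1 were not called by limma-voom (0.10, 0.075 and 0.10). SECTM1, a secreted ligand for CD7, read 24.1, 32.1, 24.7 and 26.1 CPM under cetuximab, 147, 148, 404 and 209 CPM under the MEK inhibitor and 114, 134, 135 and 170.3 CPM without serum (3.08 ± 0.29, adjusted p = 5.52e-06, edgeR). The cytokine IL32 (3.78 ± 0.72) and PLAAT2, a phospholipid-modifying enzyme (5.08 ± 0.67), were also in this set. CD274, which encodes the checkpoint ligand PD-L1, read 1.08, 1.93, 2.41 and 0.537 CPM under cetuximab and 3.96, 7.38, 10.8 and 8.26 CPM under the MEK inhibitor, groups that did not overlap, and was not called (2.297 ± 0.79, adjusted p = 0.11, edgeR).

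The ID genes, which encode dominant-negative helix-loop-helix factors induced by bone morphogenetic proteins (BMPs), were higher with the MEK inhibitor. Of 21 TGF-beta, activin and BMP genes tested, 5 were called higher and 1 lower (median 0.57), and the 5 were ID1 to ID4 and BAMBI, a decoy receptor of the same pathway. ID1 read 38.1, 48.9, 58.9 and 38.97 CPM under cetuximab and 96.04, 189.8, 175 and 456 CPM under the MEK inhibitor (2.31 ± 0.42, adjusted p = 0.0089, edgeR). MEK inhibitor replicate 4 was the highest, no libraries overlapped, and the serum-free level of 305 ± 67.8 CPM (SD, n = 4) was on the MEK inhibitor side. ID3 read 13.3, 74.3, 26.9 and 26.1 CPM under cetuximab and 173, 207, 102 and 167 CPM under the MEK inhibitor (2.202 ± 0.43, adjusted p = 0.011, edgeR). ID4 (2.61 ± 0.46) and BAMBI (3.58 ± 0.66) were scarcer: ID4 read 4.87, 3.38, 2.63 and 2.15 CPM under cetuximab and 12.8, 15.9, 11.9 and 39.4 CPM under the MEK inhibitor, where replicate 4 was far the highest, and BAMBI averaged 0.682 and 8.55 CPM. ID2 (3.04 ± 0.71, adjusted p = 0.033, edgeR) missed the threshold with the replicate block (0.067), without cetuximab replicate 2 or 4 or any 1 MEK inhibitor library (up to 0.078), and with all 20 libraries (0.087; 0.094 without the shallow one). The ligands BMP4 (-0.75 ± 0.27) and BMP7 (-0.76 ± 0.27), the receptor TGFBR2 (0.75 ± 0.28) and SMAD7 (0.600 ± 0.57) were not called. LTBP2, which encodes a matrix protein, was the gene called lower (-2.09 ± 0.32, adjusted p = 2.88e-04, edgeR).

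Of 12 NF-kB cytokine and chemokine genes tested, 2 were called higher and 1 lower (median 0.67). NFKBIA, the inhibitor that NF-kB induces against itself, read 155, 278, 171 and 154 CPM under cetuximab and 687, 712, 515 and 375 CPM under the MEK inhibitor (1.59 ± 0.204, adjusted p = 7.14e-05, edgeR). BIRC3, an NF-kB-induced inhibitor of apoptosis, read 45.4, 35.7, 18.2 and 17.7 CPM under cetuximab and 231, 149, 146 and 60.2 CPM under the MEK inhibitor (2.33 ± 0.41, adjusted p = 0.0047, edgeR). Both genes had non-overlapping groups, with MEK inhibitor replicate 4 the lowest of its group. CXCL8 (2.05 ± 0.71) and TNFAIP3 (0.66 ± 0.51) were not called. IL1RL1, the receptor for the cytokine IL-33, went the other way with the largest fall of all genes tested: 5.68, 20.3, 15.8 and 28.2 CPM with cetuximab against 0.699, 0.284, 0.276 and 0.267 CPM with the MEK inhibitor (40.96-fold, -5.36 ± 0.67, adjusted p = 3.08e-05, edgeR). The serum-free libraries, at 0.389, 0, 0 and 0 CPM, held almost none of it. Of these 3 groups only cetuximab had an appreciable level, but sorted cells given EGF without an inhibitor held far more IL1RL1. With all 20 libraries scaled together, the group means were 283.1 CPM (EGF, invasive), 104.1 CPM (EGF, non-invasive) and 16.49 CPM (cetuximab). The difference between cetuximab and EGF alone was not tested.

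Other large falls were named by a rule that admitted only genes whose groups did not overlap. AKAP12, a scaffold for protein kinase A, read 489.6, 363, 353 and 364 CPM under cetuximab and 54.8, 40.6, 31.97 and 45.04 CPM under the MEK inhibitor (9.08-fold, -3.18 ± 0.25, adjusted p = 7.05e-07, edgeR). CALB2, the calcium-binding protein calretinin, read 66.5, 129, 167 and 193 CPM under cetuximab and 10.96, 19.3, 9.096 and 16.3 CPM under the MEK inhibitor (10.00-fold, -3.32 ± 0.34, adjusted p = 1.15e-05, edgeR). For both, serum-free levels (81.7 ± 36.9 and 19.1 ± 7.45 CPM, SD, n = 4) were nearer to the MEK inhibitor group. PADI1, which converts arginine to citrulline in epithelial proteins, read 176, 109, 177 and 109.6 CPM under cetuximab, 15.4, 9.93, 11.9 and 2.399 CPM under the MEK inhibitor and 189, 327, 273 and 288 CPM without serum (14.3-fold, -3.84 ± 0.37, adjusted p = 3.52e-05, edgeR). Here the serum-free libraries were the highest of the 3 groups. TOX2 (-2.59 ± 0.33), CAPN8 (-2.73 ± 0.37) and HAS3, a hyaluronan synthase (-2.700 ± 0.503), followed, the last not called by limma-voom (0.068).

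Among proliferation genes, the 1 called member of 22 G1/S regulators was CCND1, described above. Among 30 DNA replication genes (median -0.0072) edgeR called none, 3 had an unadjusted p under 0.05, and DESeq2 and limma-voom each called 1 lower. Among 26 G2/M genes (median 0.22) it called none, as did DESeq2 and limma-voom, and 1 had an unadjusted p under 0.05. MKI67, the proliferation marker Ki-67, read 226, 235, 191 and 198 CPM under cetuximab and 210.5, 269, 214 and 227 CPM under the MEK inhibitor (0.12 ± 0.21), against 49.8, 46.9, 55.4 and 114 CPM without serum. MCM2, a replicative helicase subunit, was not called either (0.36 ± 0.28). Of 20 p53 target genes edgeR called none (median 0.017), 3 had an unadjusted p under 0.05, DESeq2 called 1 higher and limma-voom none. CDKN1A, which encodes the cell cycle inhibitor p21, read 184, 183, 51.2 and 53.5 CPM under cetuximab and 257, 273, 52.6 and 65.8 CPM under the MEK inhibitor. In CDKN1A replicates 1 and 2 were high and replicates 3 and 4 low in both groups. Among 27 ribosome biogenesis factors, FBL, the rRNA methyltransferase fibrillarin (-0.68 ± 0.15), and DKC1, a pseudouridine synthase (-0.56 ± 0.15), were called lower and none higher (median -0.27). The DKC1 call was lost without cetuximab replicate 1 or any 1 MEK inhibitor library (up to 0.10), and both were lost with all 20 libraries in the fit (0.23 and 0.26) but not without the shallow one (0.0091 and 0.030).

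Epithelial and differentiation genes moved in few members. Of 25 junction genes, CLDN7 (0.85 ± 0.15) and DSG2, a desmosomal cadherin (0.68 ± 0.15), were called higher and none lower (median 0.27), while CDH1, which encodes E-cadherin, was at 0.52 ± 0.15 (adjusted p = 0.052, edgeR). Of 19 squamous differentiation genes, 3 were called higher, among them ELF3, an epithelial ETS factor (0.81 ± 0.15), and KRT13, a suprabasal keratin (0.66 ± 0.15). IVL, which encodes the cornified-envelope protein involucrin, was not called (-0.65 ± 0.27). These calls of CLDN7, DSG2, ELF3 and KRT13 were lost with all 20 libraries in the fit (0.14, 0.10, 0.12 and 0.91). Without the shallow one those of CLDN7, DSG2 and ELF3 were kept (0.015, 0.0084 and 0.033) and that of KRT13 was not (0.50). KRT15, a keratin of basal cells, read 202, 243, 213 and 439 CPM under cetuximab and 62.5, 88.2, 95.9 and 130.1 CPM under the MEK inhibitor (-1.54 ± 0.24, adjusted p = 6.72e-04, edgeR), and the groups did not overlap. In a bulk library a lower share of cells of a type and less RNA per cell cannot be told apart. Other called genes included HES1, the Notch effector (1.35 ± 0.27, lost with all 20 libraries, 0.072, and without the shallow one, 0.094), CTSL, a lysosomal protease (1.34 ± 0.18), and IGFBP3, which binds insulin-like growth factors (1.24 ± 0.22). CYP1A1, the aryl hydrocarbon receptor target, read 105, 85.8, 142 and 45.95 CPM under cetuximab and 238, 260.2, 429 and 213 CPM under the MEK inhibitor (1.59 ± 0.28, adjusted p = 0.0045, edgeR), both far below the serum-free level of 1233 ± 49.5 CPM (SD, n = 4). ALDH3A1, on the same target list, was lower (-1.997 ± 0.33, adjusted p = 0.0011, edgeR).

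The same contrast was measured in FaDu, and an interaction test over 24 libraries asked where the lines differed. Of 12578 genes tested, 462 differed in effect between the lines (3.67%), 207 with a higher value in Kyse30 (1.65%) and 255 with a lower one (2.03%). In the same fit 1899 genes were called in FaDu (15.1%). The ERK readouts DUSP6, SPRY4 and ETV5 were not called in this test, although the estimate of each was lower in FaDu. DUSP6 was at -2.35 ± 0.37 in Kyse30 and -3.39 ± 0.395 in FaDu, a difference of 1.04 ± 0.52 (adjusted p = 0.31, edgeR). ETV5 was at -1.59 ± 0.37 and -3.04 ± 0.398, a difference of 1.45 ± 0.53 (adjusted p = 0.13, edgeR). SPRY4 was at -2.68 ± 0.61 and -3.50 ± 0.72, a difference of 0.81 ± 0.92 (adjusted p = 0.71, edgeR). ITGB4 was at -1.54 ± 0.17 and -1.62 ± 0.17, a difference of 0.08 ± 0.23 (adjusted p = 0.91, edgeR), and B2M at 1.77 ± 0.17 and 1.31 ± 0.17, a difference of 0.46 ± 0.24 (adjusted p = 0.32, edgeR). The count of 462 was 306 without Kyse30 cetuximab replicate 4 and 132 when all 16 sorted libraries of both lines shared the fit. Without the shallow Kyse30 invasive library the last count was 452, of which 387 were among the 462.

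Some ERK output genes were less affected in Kyse30 than in FaDu. PHLDA1 read 319, 244, 212 and 318 CPM under cetuximab and 20.9, 39.5, 27.7 and 28.8 CPM under the MEK inhibitor in FaDu, whereas the Kyse30 groups differed by -0.89 ± 0.200. The interaction was 2.32 ± 0.29 (adjusted p = 1.09e-05, edgeR). HMGA1 (1.23 ± 0.24, adjusted p = 0.0031) and HMGA2 (4.77 ± 0.69, adjusted p = 2.31e-04) showed the same sign by edgeR. HMGA2, an architectural protein of embryonic and tumour cells, read 32.4, 61.2, 50.3 and 162 CPM in the Kyse30 MEK inhibitor libraries, overlapping the 46.8, 99.1, 59.03 and 143 CPM with cetuximab, while in FaDu it went from 28.8, 52.6, 25.6 and 30.9 to 1.44, 1.46, 0.433 and 1.12 CPM. ETV4 (2.02 ± 0.501, adjusted p = 0.02, edgeR) was lower in both lines, by more in FaDu, but this difference was lost without FaDu MEK inhibitor replicate 4 (0.054), without Kyse30 MEK inhibitor replicate 2 (0.051) and with all 40 libraries (0.076), though not without the shallow one (0.0072).

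ID1, SOCS2 and BAMBI were among the genes that rose in Kyse30 with no called effect in FaDu and a called difference between the lines. ID1 read 468, 337, 345 and 429 CPM under cetuximab and 404, 527, 257 and 272 CPM under the MEK inhibitor in FaDu, levels above every Kyse30 cetuximab library, and the interaction was 2.42 ± 0.47 (adjusted p = 0.0056, edgeR). SOCS2, a suppressor of cytokine signalling, differed between the lines by 3.04 ± 0.69 (adjusted p = 0.012, edgeR) and was not called by limma-voom (0.058). BAMBI differed by 3.81 ± 0.91 (adjusted p = 0.015, edgeR), a call lost without FaDu cetuximab replicate 1 (0.071).

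For other genes the Kyse30 effect was the lower of the pair. ERBB3 was at -0.81 ± 0.17 in Kyse30 and 0.57 ± 0.18 in FaDu (-1.37 ± 0.25, adjusted p = 0.0015, edgeR), a call lost with all 40 libraries (0.12) but not without the shallow one (0.0010). KRT15 was at -1.54 ± 0.23 and 1.29 ± 0.23 (-2.83 ± 0.32, adjusted p = 4.39e-06, edgeR), and in FaDu all MEK inhibitor libraries (236, 149, 130.1 and 161 CPM) lay above all cetuximab libraries (64.6, 83.2, 81.03 and 47.7 CPM). TIMP3 (-2.94 ± 0.35, adjusted p = 4.39e-06), BCL6, a transcriptional repressor (-2.14 ± 0.404, adjusted p = 0.0023), and LY6D, a squamous surface antigen (-5.304 ± 0.63, adjusted p = 4.39e-06), followed by the same edgeR test. LY6D rose in FaDu from 0.702, 0.6500, 0.2099 and 2.17 to 42.4, 26.3, 12.3 and 16.1 CPM, while in Kyse30 it read 14.5, 16.7, 9.02 and 11.3 and 10.9, 9.27, 5.16 and 4.99 CPM. GBP2, a further guanylate-binding protein, read 253, 111, 144 and 138 CPM in the Kyse30 cetuximab libraries and 3.98, 8.12, 5.25 and 11.03 CPM in those of FaDu, which do not overlap, and 237, 187, 452 and 199 and 118, 72.9, 75.1 and 40.4 CPM with the MEK inhibitor. Its interaction was -2.67 ± 0.47 (adjusted p = 0.0025, edgeR).

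**Figure D5:**
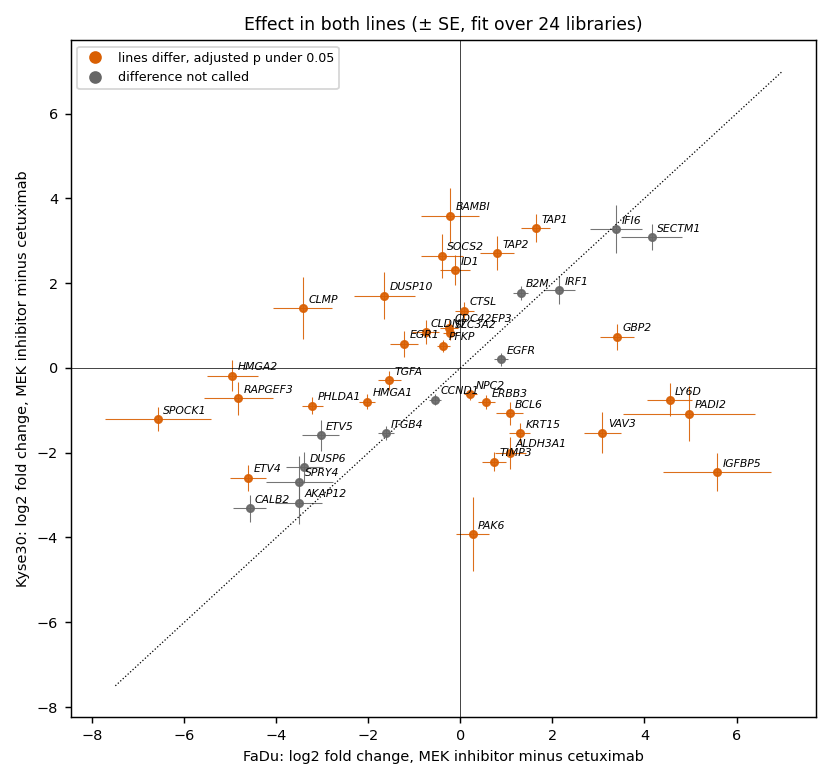
Log2 fold change of the MEK inhibitor against cetuximab in FaDu (x axis) and Kyse30 (y axis), with bars of 1 SE, from 1 fit over 24 libraries; the dotted line marks equal effects. Orange genes differ between the lines at an adjusted p under 0.05: SPOCK1, HMGA2 and PHLDA1 lie left of the line and IGFBP5, LY6D and KRT15 right of it, while DUSP6, ITGB4 and B2M (grey) are not called; the fitted values of SPOCK1 and IGFBP5 rest on a FaDu group at 0 counts and are no bounds.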

How the data were processed

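RNA of 40 libraries was read with a 3′ mRNA kit (Lexogen QuantSeq V2, per the labels' protocols), which counts transcript ends, so a count does not grow with transcript length. The authors deposited 1 table of raw whole-number counts for 12655 genes, and the submitters' processing notes name STAR, HTSeq and GRCh38. The sources used here do not give tool versions, the annotation or strand handling, so a gene and its antisense partner cannot be told apart. No molecular identifiers are named, so tests cover library spread and not duplicated reads. Groups came from the sample titles, and 0 columns were left unmatched.

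The main test was edgeR 4.0.16 in R 4.3.3 (quasi-likelihood F test, TMM, default expression filter by group, robust dispersions) on 12 unselected Kyse30 libraries (MEK inhibitor, cetuximab, serum-free), with Benjamini-Hochberg adjustment and a threshold of 0.05. The sorted libraries were left out because 1 is shallow and some stand apart; fits with them are alternatives. The interaction used 24 unselected libraries of both lines. CPM use TMM factors. Deviations of same-numbered libraries from their group means correlated at 0.107 to 0.372, a pairing read from the data and not stated by the labels. Pairs with different numbers correlated at -0.286 to 0.163. Of 4 MEK inhibitor libraries, 3 correlated best with their own number, while replicate 1 did so with cetuximab replicate 2 (0.163 against 0.107). Replicates differed by more than sampling noise (chi-square per degree of freedom of 5.45 to 31.8).

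The comparison and 46 gene lists were chosen with earlier results of these data known. Genes were named by rule: every member of the phosphatase, Sprouty, PEA3, receptor and ligand lists; up to 4 called members of each other list; the 15 largest called rises and falls without overlap at 10 CPM or more, leaving out pseudogenes; 5 interaction genes per direction; and genes at 0 counts in 1 group with 5 CPM or more in the other. Uncalled or further list members (such as FOS, MKI67, CD274, IRF1, HLA-B) and the ISRE and GAS motifs were chosen after their values were seen. Alternatives were RLE and upper-quartile scaling, filters, DESeq2 1.42.0, limma-voom 3.58.1, the sample set, a replicate block and leaving out each library. Promoters were taken from RefSeq (GRCh38.p14). Values of some genes are not reported here.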

Additional observations from a re-analysis of the deposited data

Results flagged for a closer look

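In 15 of 296 groups of 4 libraries examined, the gap of 1 library to the nearest other, over the range of the group, was above Dixon's 95% critical value, which chance alone passes in about 1 in 20 groups. MEK inhibitor replicate 1 held 4072449 counts against 3457243 in the next library. Among cetuximab libraries, replicate 1 was far above the rest for MMP14 (133.9 against 70.4 CPM) and AKAP12 (489.6 against 364.4 CPM) and far below them for SH3KBP1 (81.4 against 103 CPM) and CDH5 (12.4 against 28.5 CPM). Cetuximab replicate 2 was far above for AREG (825.4 against 347 CPM), NFKBIA (277.8 against 171 CPM), KRT6A (6.75 against 2.15 CPM) and TRIM22 (0.482 against 0 CPM), and replicate 4 for KRT15 (439 against 243 CPM). With the MEK inhibitor, replicate 3 was far above for BTC (30.6 against 15.2 CPM) and PLAAT2 (54.3 against 18.6 CPM), replicate 4 for ID4 (39.4 against 15.9 CPM) and replicate 1 for IL1RL1 (0.699 against 0.284 CPM), and replicate 4 was far below for TALDO1 (247 against 278.0 CPM).

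Of 146 named genes in the fit over both lines, 32 had an effect that differed between Kyse30 and FaDu by edgeR's interaction test (Benjamini-Hochberg adjusted p under 0.05). Over all 12578 genes tested, 462 did (3.67%). The named set holds 5 genes per direction that were picked by this same test, so the count of 32 was partly fixed by the choice. The Kyse30 effect minus the FaDu effect was below 0 for 12 genes, on the log2 scale: IGFBP5 (-8.04), PADI2 (-6.05), LY6D (-5.30), VAV3 (-4.61), PAK6 (-4.20), ALDH3A1 (-3.09), TIMP3 (-2.94), KRT15 (-2.83), GBP2 (-2.67), BCL6 (-2.14), ERBB3 (-1.37), NPC2 (-0.83). It was above 0 for 20 genes: PFKP (0.89), SLC3A2 (1.05), CDC42EP3 (1.19), HMGA1 (1.23), TGFA (1.25), CTSL (1.26), CLDN7 (1.605), TAP1 (1.66), EGR1 (1.80), TAP2 (1.91), ETV4 (2.02), PHLDA1 (2.32), ID1 (2.42), SOCS2 (3.04), DUSP10 (3.36), BAMBI (3.81), RAPGEF3 (4.11), HMGA2 (4.77), CLMP (4.83), SPOCK1 (5.37). The values of IGFBP5, PADI2, SPOCK1, RAPGEF3 and PAK6 rest on groups at or near 0 counts and are no bounds, and those of BAMBI, CLMP and LY6D rest on a group that averaged below 1 CPM. CLMP and PAK6 were too low in Kyse30 to be tested in that line alone. The difference of TAP2 was lost without any 1 of 13 libraries, and that of TAP1 without any 1 of 10.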

How the results depend on the processing

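Of 107 named genes called, 48 kept the call in every setting tried, 77 kept it with each library left out in turn, and 0 changed sign. The 599 calls became 141 with all 20 Kyse30 libraries in the fit, 563 when the shallow invasive library was left out of these, 852 with DESeq2, 649 with limma-voom, and 354 to 612 with 1 library left out. With only the 2 compared groups in the fit, 603 genes were called, of which 499 were among the 599. The calls of MCL1, MMP14, LAMB3, ID2 and DKC1 were among those lost there. The 462 interaction calls became 132 with all 40 libraries, 452 without the shallow one, 711 with DESeq2, and 306 to 514 with 1 library left out. With all 20 libraries the Sprouty list had 1 gene called lower, the laminin and integrin list 3 and the interferon list 4 higher; without the shallow one, a setting chosen after seeing the data, they had 3, 6 and 7, so the interferon count remained below the 20 reported. With the replicate block 638 genes were called (558 shared with the 599) and 478 in the interaction; the pairing ended the calls of NRAS, LAMB3, SLC16A3, ID2 and MANCR (0.058, 0.055, 0.055, 0.067 and 0.059), and for the lines those of CLDN7, TAP1 and TAP2 (0.061, 0.066 and 0.079). Of uncalled genes, with 1 library left out, DUSP5 ranged from -0.51 to 0.035, DUSP9 from -0.21 to 0.17, HMGA2 from -0.86 to 0.16 and ACTB from -0.058 to 0.11, so each changed sign. Genes under about 10 CPM rest on few counts.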

Other observations

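Gene families picked after their values were seen extended the description, and their counts come from the main model alone. Of 77 cytoplasmic ribosomal protein genes, 25 were called lower with the MEK inhibitor and none higher by edgeR (median -0.37, 10 with a value above 0). RPS3 stood at 1500.1 ± 188 CPM under cetuximab and 913 ± 88.5 CPM under the MEK inhibitor (SD, n = 4; -0.72 ± 0.13, adjusted p = 0.0015, edgeR), and RPL37A at 2264 ± 223 and 1384 ± 66.3 CPM (-0.71 ± 0.12, adjusted p = 0.001, edgeR). Reads of ribosomal protein genes are shared with their processed pseudogenes, so single values are uncertain. In the proteasome, all 17 genes of the 20S core had a value above 0 and 6 were called (median 0.69), against 2 of 20 genes of the 19S cap (median 0.090). Beyond the immunoproteasome subunits PSMB8 and PSMB9, the called core genes were PSMB2 (0.68 ± 0.15), PSMA2 (0.73 ± 0.19), PSMA3 (0.75 ± 0.201) and PSMA5 (1.03 ± 0.297).

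Some components of cytokine signalling were also called higher. Of 8 genes of the SOCS family, which damp JAK-STAT signalling, CISH (2.53 ± 0.58) and SOCS2 (2.64 ± 0.62) were called, all 8 had a value above 0, and SOCS1 was not called (2.497 ± 0.78, adjusted p = 0.068, edgeR). The SOCS2 call was lost without cetuximab replicate 3 (0.052) or MEK inhibitor replicate 3 (0.062), and with all 20 Kyse30 libraries in the fit (0.052), but not when the shallow invasive library was left out of these (0.0016). Of 5 receptor genes that signal through gp130, IL6ST, which encodes gp130 itself (0.99 ± 0.21), LIFR (1.42 ± 0.34) and OSMR (1.36 ± 0.39) were called higher, and IL6R (-0.49 ± 0.300) and IL11RA (-1.46 ± 0.76) were not called. Among 4 apolipoprotein L genes, which interferon induces, APOL1 (2.96 ± 0.54), APOL2 (1.58 ± 0.38) and APOL6 (1.33 ± 0.18) were called higher. PADI3 joined PADI1 among the peptidylarginine deiminases called lower (1480.1 ± 312 against 406 ± 52.7 CPM, SD, n = 4; -1.87 ± 0.17, adjusted p = 7.05e-07, edgeR).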
